A study of Homo sapiens with 12 samples.

Results

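CD43+ blood progenitors were compared with the undifferentiated H1 cells from which they had been derived, that is, the last population of a differentiation series with its starting point. Of the 12 RNA-seq libraries of the series, 6 belong to this comparison: 3 of H1 and 3 of CD43+ cells, taken by the population named in the sample labels. H1 is a human embryonic stem cell (hESC) line in wide use, kept on Matrigel in mTeSR medium. The CD43+ hematopoietic progenitor cells (HPCs) were collected on day 8, after activin A and BMP4 for 2 days and VEGF and bFGF for a further 6 days in a chemically defined medium. Both groups come from this single cell line and neither carries a genetic change, so the values below hold for 1 line. The other 6 libraries, APLNR+ mesoderm of day 2 and CD31+CD34+ hemogenic endothelial progenitors (HEPs) of day 5, are used below only for levels along the way. The methods speak of independent experiments in general terms and do not say whether each library is a separate culture, so p values measure the spread between these libraries.

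Pluripotent cells are held in their state by a small circuit of transcription factors around OCT4 (gene POU5F1), NANOG and SOX2, and they form a tight epithelium. Blood cells in the embryo arise from mesoderm through an endothelial intermediate that loses its junctions and rounds up. The first blood cells are mainly red cells, megakaryocytes and macrophages, and CD43 (leukosialin, gene SPN) is among the earliest surface proteins that part them from endothelium.

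Values are FPKM, which count fragments relative to the length of a transcript and to all those mapped in its library, and differences were taken between group means of log2(FPKM + 1), a scale that understates the change of low genes. A gene entered where it reached 1 FPKM in at least 3 of the 6 libraries, which left 13767 genes. It was called raised or lowered in CD43+ cells when limma gave an adjusted p below 0.05 together with a difference of 2-fold or more. With 3 libraries against 3, an exact permutation test of a single gene cannot give a p under 0.1. Summed FPKM was from 1284990 to 1478860 in H1 and from 600630 to 831488 in CD43+ libraries, and small RNA genes held from 55.5% to 58.0% of it in H1 but from 14.3% to 20.0% in CD43+ cells. The sums over protein-coding genes lay closer, from 428568 to 433102 and from 425601 to 494079. Replicate 1 was the shallowest library of each group, at 0.688 (H1) and 0.747 (CD43+) of the depth of CD43+ replicate 3.

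The genes of the antigen that defines the population and of the leading pluripotency factor were examined first. SPN was at 0.499, 0.557 and 0.492 FPKM in H1 and at 60.3, 90.6 and 75.7 FPKM in CD43+ cells. POU5F1 was at 1009, 1028 and 967 FPKM in H1 and at 11.4, 13.6 and 12.4 FPKM in CD43+ cells. Both genes, chosen as markers of the groups, followed their labels in all 6 libraries without overlap, as did 78.1% of all genes without regard to direction. SPN was under 1 FPKM in every H1 library and entered the test through the CD43+ libraries alone, so it had to be higher there. The difference was 5.64 ± 0.15 (SE) for SPN and -6.22 ± 0.10 for POU5F1 on the log2 scale (limma, adjusted p 6.33e-09 and 9.9e-10). By permutation, each had p = 0.1 (exact, two-sided), the smallest this design can give.

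In the whole table, 2136 genes were raised in CD43+ cells (15.5%) and 3325 were lowered (24.2%), so 39.7% were called in either direction, and the libraries of both groups stood apart without overlap for 78.1% of genes. All CD43+ libraries lay above all H1 libraries for 34.5% of genes and below them for 43.7%. The median difference over all genes was -0.13. Changes of at least 16-fold were more often rises, 131 against 75 falls. Of the raised genes, 716 reached 1 FPKM in every CD43+ library and in no H1 library, and of the lowered genes 976 did so in H1 alone. Among lowered genes, 81.7% had their highest mean of the 4 populations in H1. Among raised genes, 61.1% peaked in CD43+ cells and 35.3% already in CD31+CD34+ cells, so part of the net rises had a lower mean on day 8 than on day 5. The share of raised among called genes, 39.1%, depended on scaling and was 34.2% when libraries were set to the same protein-coding sum and 47.3% after quantile normalization.

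**Figure D1:**
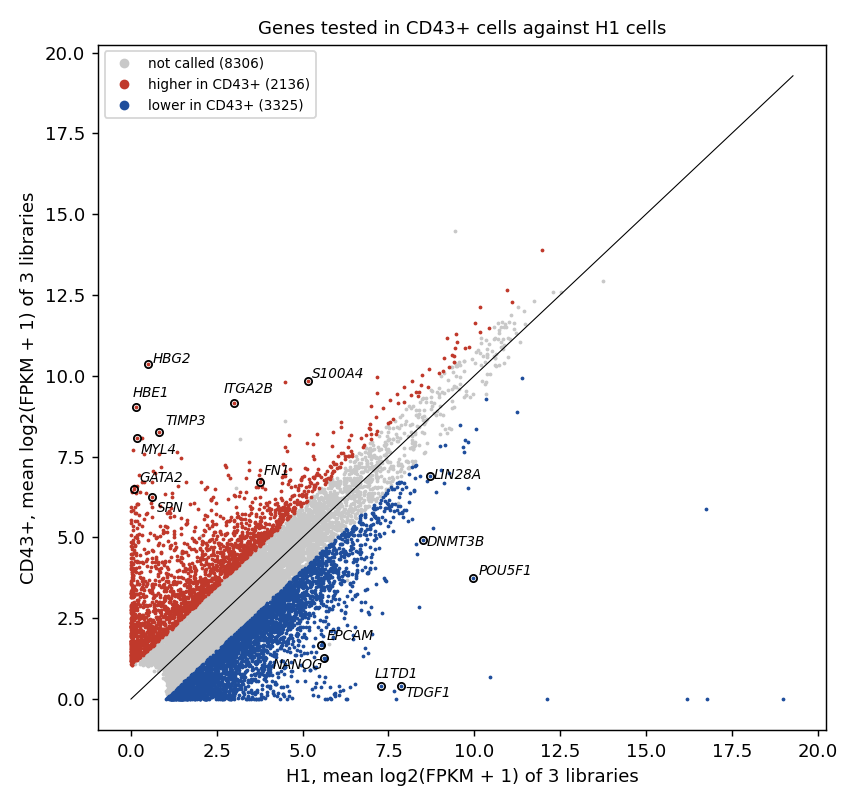
Each point is a gene tested, with its mean log2(FPKM + 1) over 3 H1 libraries on the horizontal axis and over 3 CD43+ libraries on the vertical axis; the line marks equal levels. The 2136 raised genes (red) and 3325 lowered genes (blue) lie off the line, with HBG2 and TDGF1 far into opposite corners, and the blue points on the floor at the far right are small RNA genes listed at 0 in CD43+ cells.

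The 10 largest rises among abundant protein-coding genes were led by globins. HBG2, the fetal gamma globin, was at 1.08, 0.175 and 0.137 FPKM in H1 and at 1136, 1509.9 and 1326 FPKM in CD43+ cells (log2 difference 9.87 ± 0.23, limma adjusted p 3.19e-09). HBE1, the embryonic epsilon globin, was at 0.327 and 0.0302 FPKM in a pair of H1 libraries and listed at 0 in the third, against 482, 564 and 530.2 FPKM in CD43+ cells (8.89 ± 0.13). HBD, the minor adult delta globin, was listed at 0 in H1 replicates 2 and 3 and at 0.146 FPKM in replicate 1, against 200.2, 233 and 191 FPKM (7.64 ± 0.12). All 3 globins were therefore at 191 FPKM or more in every CD43+ library and near or at 0 in every H1 library. Reads from near-identical copies such as HBG1 and HBG2 can be split by the counting, so the share of each copy is uncertain.

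The other 7 genes of that group were not globin genes. MYL4, an embryonic and atrial myosin light chain, rose from 0.130 ± 0.125 to 268 ± 20.9 FPKM (SD, n = 3). GAD1, the enzyme that makes GABA from glutamate, was at 0.424, 0.187 and 0.139 FPKM in H1 and at 252, 302 and 264 FPKM in CD43+ cells, and already averaged 175 FPKM in CD31+CD34+ cells. TIMP3, an inhibitor of matrix proteases, was at 261, 327 and 339 FPKM in CD43+ cells against 0.756 ± 0.0593 FPKM in H1. ARHGDIB, a regulator of GTPases in blood cells, and FERMT3, the kindlin that activates blood cell integrins, each averaged 193 FPKM in CD43+ cells and under 1 FPKM in H1. ITGB3 and PECAM1 (CD31), adhesion proteins of platelets and endothelium, averaged 96.1 ± 11 and 95.9 ± 11.7 FPKM in CD43+ cells against 0.0560 and 0.127 FPKM in H1. Groups without overlap were a condition for naming these 7 genes and so are not a result. Their log2 differences ran from 6.42 for PECAM1 to 7.90 for MYL4.

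The 10 largest falls held pluripotency genes beside genes with neural roles. TDGF1 (CRIPTO), the Nodal co-receptor, was at 249.95, 234 and 219 FPKM in H1 and at 0.526, 0.141 and 0.333 FPKM in CD43+ cells (log2 difference -7.47 ± 0.13). L1TD1, an RNA-binding protein derived from a mobile element, was at 149, 157 and 158 FPKM in H1 and at 0.432, 0.274 and 0.303 FPKM in CD43+ cells (-6.87 ± 0.10). POU5F1 was the third, and USP44, a deubiquitinase, fell from 91.0 ± 4.25 to 0.388 ± 0.135 FPKM. The others described here were CRABP1 (a retinoic acid carrier), ADCY2 (an adenylyl cyclase), VSNL1 (a neuronal calcium sensor), TMEM132B and LCK. LCK, best known as the kinase of the T cell receptor, was at 69.7, 56.6 and 55.2 FPKM in the stem cells and at 0.222, 0.176 and 0.0363 FPKM in the blood progenitors. These 5 genes lay between 60.5 and 83.1 FPKM on average in H1 and under 0.3 FPKM in CD43+ cells.

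**Figure D2:**
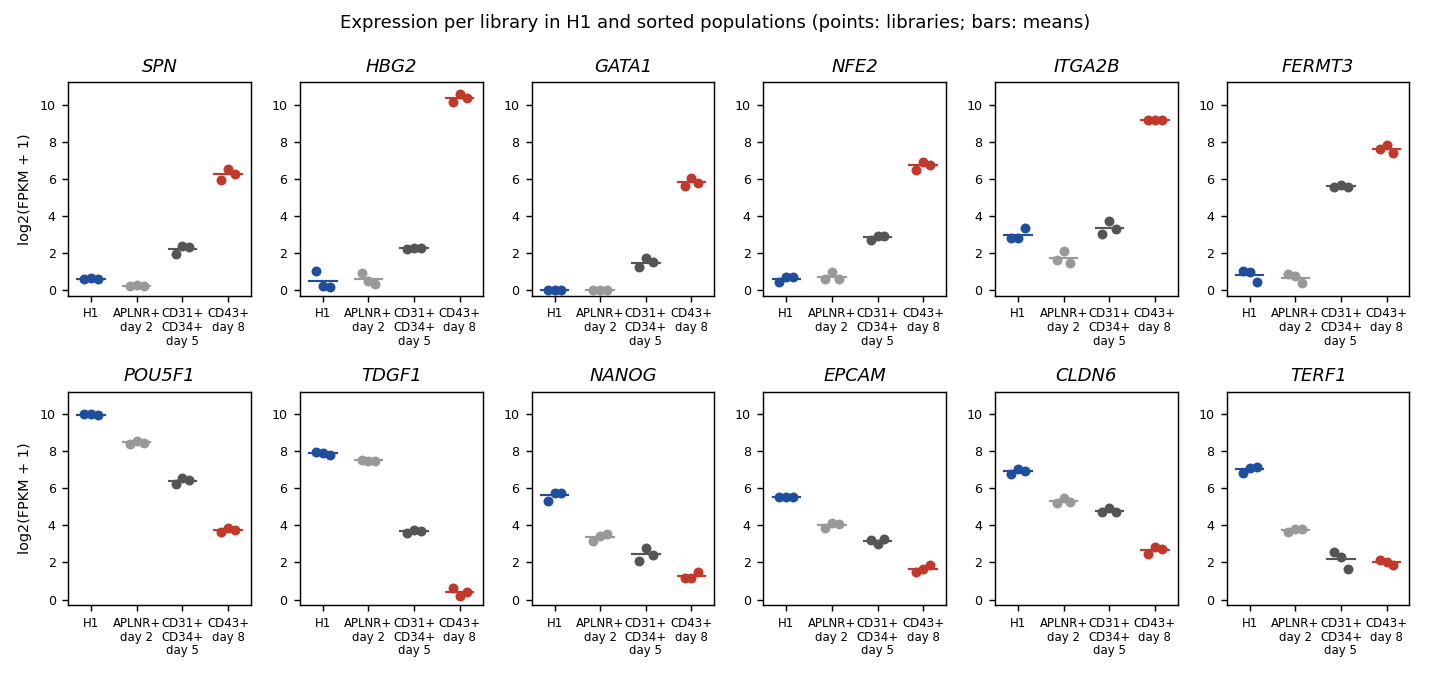
Each panel plots log2(FPKM + 1) of a gene in all 12 libraries, with points for libraries and bars for their mean, in H1 (blue), APLNR+ and CD31+CD34+ (grays) and CD43+ cells (red). The 6 genes of the upper row are highest in CD43+ cells, the 6 of the lower row are highest in H1, and TERF1 is already as low in CD31+CD34+ as in CD43+ cells.

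Of 30 pluripotency genes listed, 28 were tested and 27 were lowered, against 24.2% of all genes. Among the 28 tested genes, 10 passed the filter through H1 alone and so had to differ, and the median over all 30 was -3.21. How much was left differed widely from gene to gene. SOX2 stood at 47.9, 40.3 and 40.9 FPKM in H1 and at 0.0465, 0.0569 and 0.0792 FPKM in CD43+ cells, or 0.141% of its H1 level. NANOG, at 39.4, 53.3 and 53.2 FPKM in H1, kept 1.26, 1.26 and 1.80 FPKM (2.96%). POU5F1 kept 1.25% of its H1 level, which was still 12.5 ± 1.10 FPKM (SD, n = 3). Thus 8 of the 28 genes were under 1% of their H1 level and 18 were under 10%, and the median was 4.97%.

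A subset of these genes remained well expressed. LIN28A, which blocks maturation of let-7 microRNAs, was at 388, 432 and 424 FPKM in H1 and at 108, 120.5 and 127 FPKM in CD43+ cells, 28.6% of the H1 level. Its paralog LIN28B kept 26.8% (48.3 ± 2.78 against 13.0 ± 3.48 FPKM) and SALL4, a zinc finger factor, 37.9% (37.4 ± 3.07 against 14.2 ± 1.71 FPKM). All 3 were nevertheless lowered, by 1.80, 1.85 and 1.34 on the log2 scale (limma, adjusted p 6.01e-07, 1e-05 and 6.95e-06). The de novo DNA methyltransferases differed from each other. DNMT3B fell from 359.7 ± 9.75 to 29.4 ± 2.68 FPKM, whereas DNMT3A was at 31.8, 23.5 and 23.3 FPKM in H1 and at 18.7, 20.4 and 17.9 FPKM in CD43+ cells, 72.4% of its H1 level and the only tested member of the list that was not called. TERF1, the telomere repeat binding factor, fell from 129 ± 14.9 to 3.05 ± 0.342 FPKM and DPPA4 from 316 ± 9.22 to 27.2 ± 2.72 FPKM.

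**Figure D3:**
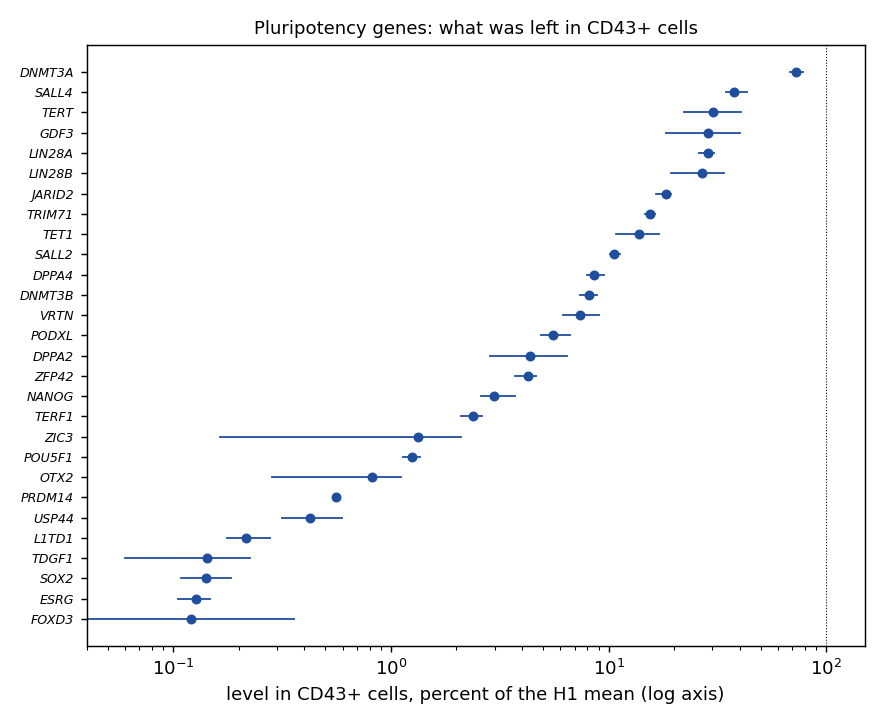
For each of the 28 pluripotency genes that averaged at least 1 FPKM in H1, the point is the CD43+ mean as a percent of the H1 mean (log axis) and the line spans the 3 CD43+ libraries. Values run from 0.120% for FOXD3, whose lowest library was at 0 and lies off the axis, to 72.4% for DNMT3A.

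The signals that hESCs depend on fell with these factors. Of 24 listed genes of the Nodal, FGF and Wnt pathways, 22 were tested. Of these, 16 were lowered (72.7%, against 24.2% of all genes) and 1 was raised, with a median of -2.01 over all 24. FGF2, the growth factor of hESC medium, was at 16.9, 15.8 and 14.0 FPKM in H1 and at 1.10, 0.732 and 0.530 FPKM in CD43+ cells. SFRP2, a secreted Wnt antagonist, fell from 49.5 ± 1.87 to 0.609 ± 0.164 FPKM, and the Wnt receptor gene FZD7 from 47.0 ± 3.43 to 4.29 ± 0.194 FPKM. FGF receptor genes moved in opposite directions, as FGFR2 fell from 19.8 ± 1.24 to 1.99 ± 0.242 FPKM and FGFR3 rose from 2.50 ± 0.283 to 7.33 ± 0.628 FPKM.

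The epithelial program of H1 was lowered as a group, with no member raised. All 38 listed epithelial genes were tested and 31 were lowered (81.6%, against 24.2% of all genes). The median was -1.85, and 14 of the 38 passed the filter through H1 alone. EPCAM was at 45.9, 45.1 and 45.6 FPKM in H1 and at 1.83, 2.18 and 2.61 FPKM in CD43+ cells. CDH1 (E-cadherin) was at 31.2, 36.8 and 35 against 1.45, 1.68 and 1.92 FPKM. OCLN, a tight junction protein, was at 4.63, 8.13 and 7.80 against 0.652, 0.809 and 0.749 FPKM. The groups did not overlap for any of the 3 genes, as for 78.1% of all genes, and OCLN passed through H1 alone. The widest gaps of the list belonged to AP1M2 (-4.40), which sorts proteins to the basolateral membrane, the claudin gene CLDN6 (-4.24), the epithelial splicing regulator ESRP1 (-4.14) and MAL2 (-4.05). Keratin gene KRT8 was lowered from 152 ± 6.58 to 60.5 ± 9.93 FPKM. The junction genes F11R and JUP went the other way, higher in CD43+ cells by 0.46 and 0.53, under the 2-fold limit.

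On the side of the blood cells, 22 of 29 listed transcription factors were raised, against 15.5% of all genes, and 23 were tested. Of the 23, 18 passed through CD43+ libraries alone, and the median over all 29 was 3.63. GATA2, a factor of blood stem and progenitor cells, was at 0.10, 0.0348 and 0.0714 FPKM in H1 and at 79.4, 106 and 86.2 FPKM in CD43+ cells (6.41 ± 0.13). GATA1, its red cell and platelet counterpart, was at 48.8, 65.2 and 54.2 FPKM in CD43+ cells and at 0.0179 FPKM or less in H1. LMO2 was at 112, 133 and 139 FPKM against 0.628 ± 0.0403 FPKM, and its partner TAL1 at 60.8, 68.4 and 65.8 FPKM against 0.388, 0.0130 and 0.0122 FPKM. These 4 genes passed through CD43+ libraries alone, so they had to be higher in every CD43+ library. FLI1, an ETS factor of megakaryocytes and endothelium, NFE2, the platelet release factor, and KLF1, the red cell Krueppel-like factor, were raised by 6.14, 6.11 and 5.28. RUNX1, which drives the endothelial to blood step, rose from 0.130 ± 0.0678 to 37.9 ± 2.25 FPKM. SPI1 (PU.1), the myeloid factor, reached a lower level than RUNX1 in CD43+ cells, at 12, 14.8 and 11.6 FPKM.

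A single factor of this list went the other way. BCL11A, the repressor of fetal globin genes, was at 3.98, 6.23 and 3.66 FPKM in H1 and at 0.616, 0.622 and 2.12 FPKM in CD43+ cells (-1.45 ± 0.27, limma adjusted p 0.000859). In CD43+ libraries HBG2 made up from 57.6% to 62.1% of the summed FPKM of 10 globin genes and HBE1 from 23.2% to 24.5%. HBB, the adult beta globin, stood at 10.2, 13.8 and 9.24 FPKM there and was listed at 0 in H1. The 10 globin genes together were from 0.445% to 0.492% of the protein-coding sum of a CD43+ library.

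Erythroid genes as a list gave 23 raised (82.1%, against 15.5% of all genes) and 0 lowered of 28 tested and 34 listed. The median over all 34 was 1.89. Of the 28 tested, 18 passed through CD43+ cells alone. ALAS2, the red cell enzyme that starts heme synthesis, was at 48.9, 65.2 and 69.0 FPKM against 0.0762, 0.0643 and 0.119 FPKM in H1. RHAG, of the Rh complex, averaged 57.4 ± 5.21 FPKM against 0.0319 ± 0.0316 FPKM, and GYPC, a glycophorin, 122 ± 11.9 against 12.4 ± 1.15 FPKM. Late red cell genes were near 0. SLC4A1 (band 3) was at 0.0549 and 0.0334 FPKM in a pair of CD43+ libraries and listed at 0 in the other, and HEMGN was at 0.0774 FPKM or less. TFRC, which brings in iron, was at 42.3, 42.0 and 39.4 FPKM in H1 and at 24.2, 23.8 and 29.2 FPKM in CD43+ cells, lower in all 3 libraries but under the 2-fold limit. AHSP, the chaperone of alpha globin, was at 7.36, 3.5 and 3.43 FPKM in H1 and at 1.59, 1.76 and 2.04 FPKM in CD43+ cells (-0.98 ± 0.23), and it passed as lowered once H1 replicate 2, H1 replicate 3 or CD43+ replicate 3 was left out.

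Heme synthesis and iron genes moved less, with a median of 0.72. Of 21 genes, 8 were raised (38.1%) and 1 was lowered (4.76%), against 15.5% and 24.2% of all genes. Without CD43+ replicate 3, 2 were lowered. UROD and UROS, enzymes of the middle of the heme pathway, rose from 69.8 ± 15.4 to 342 ± 26.9 and from 29.4 ± 1.36 to 65.1 ± 6.52 FPKM. FTL, the ferritin light chain, rose from 712 ± 103 to 2561 ± 519 FPKM, and SLC25A37 (mitoferrin) from 7.25 ± 0.453 to 21.5 ± 1.5 FPKM. FLVCR1, the heme exporter, was at 24.5, 24.9 and 24.6 FPKM in H1 and at 4.53, 4.02 and 4.68 FPKM in CD43+ cells.

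The stretches upstream of ALAS2, HBD and L1TD1 are shown because these genes were named at the extremes of the erythroid and pluripotency lists and had an entry among the RefSeq promoters. Each is the 250 bases before the annotated start, 5′ to 3′ on the gene's strand in GRCh38.p14. Capitals mark the GATA motif, searched as AGATAA or TGATAA on both strands.
HBD, chr11:5234484-5234733, minus strand: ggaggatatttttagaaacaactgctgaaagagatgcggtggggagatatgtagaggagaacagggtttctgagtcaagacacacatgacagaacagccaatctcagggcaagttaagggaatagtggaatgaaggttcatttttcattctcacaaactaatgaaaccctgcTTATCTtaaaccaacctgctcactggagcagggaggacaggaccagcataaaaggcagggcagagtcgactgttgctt
ALAS2, chrX:55030978-55031227, minus strand: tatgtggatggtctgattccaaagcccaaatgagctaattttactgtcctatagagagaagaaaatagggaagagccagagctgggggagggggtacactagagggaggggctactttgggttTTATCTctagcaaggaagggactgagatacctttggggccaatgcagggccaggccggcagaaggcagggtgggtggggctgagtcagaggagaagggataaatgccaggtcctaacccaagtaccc
L1TD1, chr1:62194599-62194848, plus strand: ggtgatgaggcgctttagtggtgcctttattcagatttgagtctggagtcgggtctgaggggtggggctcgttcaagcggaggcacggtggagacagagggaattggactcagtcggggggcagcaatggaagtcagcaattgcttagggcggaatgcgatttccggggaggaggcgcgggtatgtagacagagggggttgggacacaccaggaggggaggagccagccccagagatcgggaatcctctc

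The motif lay from -78 to -73 in HBD and from -127 to -122 in ALAS2 relative to the start, and L1TD1 held none. Of all 35116 windows of this length, 14.6% held it, and 17.5% of 27305 genes held it in at least 1 window. Of 18 erythroid genes with a window, 14 (77.8%) held it in at least 1 window, beside 7 of 20 megakaryocyte genes, 8 of 25 blood transcription factors, 4 of 19 pluripotency genes and 0 of 19 epithelial genes. Among the erythroid genes with the motif, 10 were raised, 2 were not called and 2 were not tested, and among those without it 2 were raised and 2 were not called. The other motifs searched the same way, CCACACCC and the octamer ATGCAAAT, were in windows of 1 and 0 of the 18 erythroid genes, 1 and 0 of the 19 pluripotency genes, and 3.66% and 2.03% of all genes with a window. Over all raised genes with a window the share was 14.8%, over lowered genes 12% and over all tested genes 11%. The motif is rich in A and T, and the median GC content of the windows was 52.8% for erythroid genes, 65.8% for epithelial genes and 64.8% for tested genes. The part of base composition in these shares was not tested, and a match of letters is not a bound site.

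Megakaryocyte and platelet genes were raised nearly throughout, 22 of 26 listed and of 23 tested (95.7%, against 15.5% of all genes). The median over all 26 was 2.94, and 18 of the 23 passed through CD43+ cells alone. ITGA2B (CD41), the platelet integrin, was at 5.97, 6.15 and 9.18 FPKM in H1 and at 567, 574 and 585 FPKM in CD43+ cells. Its partner ITGB3 was at 84.6, 106 and 97.3 FPKM against 0.104 FPKM or less. PLEK, a platelet substrate of protein kinase C, averaged 84.0 FPKM and PF4, platelet factor 4, 59.7 ± 12 FPKM against 1.24 ± 0.156 FPKM. P2RY1, a platelet ADP receptor, was the exception, at 8.47 ± 0.347 in H1 and 2.41 ± 0.147 FPKM in CD43+ cells.

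The myeloid list was split by what was measurable. Of 28 listed genes, 15 were tested and 14 were raised (93.3%, against 15.5% of all genes). Of the 15, 13 passed through CD43+ cells alone, and the median over all 28 was 0.92. TYROBP, an adaptor of myeloid receptors, was at 23.4, 41.2 and 35.6 FPKM and MS4A3 at 25.1, 28.8 and 30 FPKM in CD43+ cells, both listed at 0 in H1. FCER1G rose from 0.295 ± 0.0828 to 24.8 ± 6.99 FPKM, and CSF1R, the macrophage growth factor receptor, was at 4.70, 5.14 and 4.68 FPKM. Granule and monocyte markers were near 0, with MPO at 0.0813 FPKM or less and CD14 at 0.105 FPKM or less. CLC was at 3.75, 3.39 and 2.08 FPKM in H1 and listed at 0 in CD43+ cells.

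Of the lymphoid list, 5 of 19 genes were tested, 4 were raised (80%, against 15.5% of all genes) and LCK was lowered. CD79B rose from 1.88 ± 0.390 to 16.8 ± 1.32 FPKM, and CD7 from 0.425 ± 0.0867 to 3.62 ± 0.0946 FPKM. Of the 5, 3 passed through CD43+ cells alone and 1 through H1 alone, and the median over all 19 was 0.05. The 14 untested genes averaged at most 0.295 FPKM over the 6 libraries.

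Of blood surface antigens and cytokine receptors, 13 of 29 listed and of 19 tested were raised and 0 were lowered. The raised share of those tested was 68.4%, against 15.5% of all genes. Of the 19, 11 passed through CD43+ cells alone, and the median was 0.79 over all 29 and 2.25 over the 19. CD34 was at 17.4, 24.1 and 25.1 FPKM in CD43+ cells against 0.0622 ± 0.0310 FPKM in H1, and its mean in CD31+CD34+ cells was 47.7 FPKM. CD44 rose from 2.84 ± 0.0987 to 58.6 ± 6.63 FPKM, and CD69 stood at 21.8, 20.1 and 22.2 FPKM. KIT, the stem cell factor receptor, was at 4.76, 5.78 and 6.23 FPKM in H1 and at 2.97, 4.38 and 5.34 FPKM in CD43+ cells, with overlap. PTPRC (CD45), the common leukocyte antigen, was at 0.0695 and 0.521 FPKM in CD43+ replicates 1 and 2 and listed at 0 in replicate 3, so SPN was high where PTPRC was near 0.

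Signaling and cytoskeletal genes of leukocytes were mostly raised, 90.3% of those tested against 15.5% of all genes. Of 34 listed, 31 were tested, 28 were raised and 1 was lowered, with a median over all 34 of 3.07, and 14 passed through CD43+ cells alone. Beside ARHGDIB and FERMT3, GMFG averaged 105 ± 16.3 FPKM against 0.312 ± 0.108 FPKM, LAPTM5 64.8 ± 11 against 0.141 ± 0.0291 FPKM and the kinase gene BTK 65.3 ± 10.9 against 0.158 ± 0.0944 FPKM. PIK3CD, a leukocyte PI3-kinase subunit, fell from 2.57 ± 0.332 to 0.619 ± 0.116 FPKM.

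**Figure D4:**
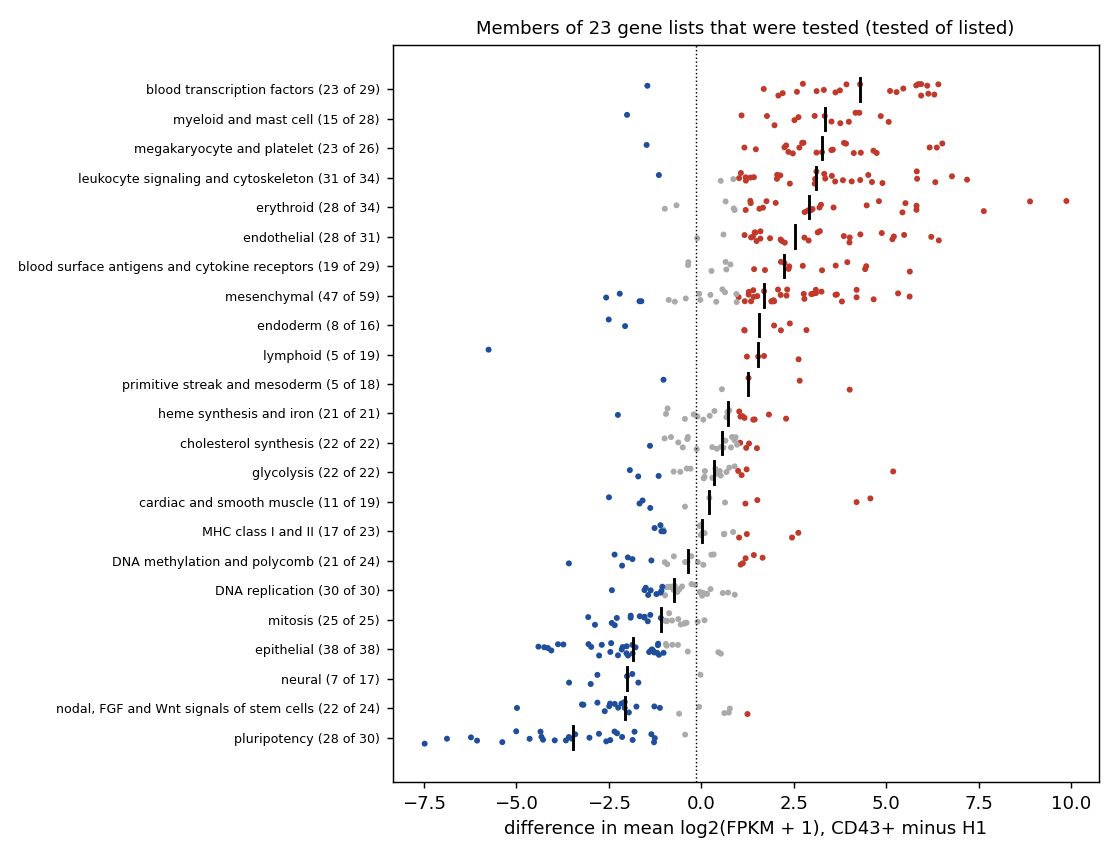
Each point is a tested member of a list, placed by its difference in mean log2(FPKM + 1) between CD43+ and H1 cells and colored red where raised, blue where lowered and gray where not called; black bars are medians of tested members and the dotted line is the median of all genes, -0.13. Blood lists lie to the right, with medians of tested members from 2.25 to 4.29 apart from the lymphoid and heme lists. Over all listed members, the same medians run from 0.79 to 3.63. Many members of these blood lists were tested through CD43+ cells alone. Pluripotency (-3.45) and epithelial genes (-1.85) lie to the left.

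Endothelial genes were higher in the blood progenitors than in H1. Of 31 listed, 28 were tested, 26 were raised (92.9%, against 15.5% of all genes) and 0 were lowered. The median over all 31 was 2.18, and 16 passed through CD43+ cells alone. CDH5 (VE-cadherin) was at 26.5, 38.4 and 36.7 FPKM in CD43+ cells and at 0.279, 0.148 and 0.0892 FPKM in H1. PLVAP, a protein of endothelial pores, averaged 81.7 ± 10.8 FPKM, TIE1 95.6 ± 11 FPKM and STAB1 66.9 ± 7.06 FPKM. KDR, the VEGF receptor, rose from 24.1 ± 4.23 to 110.5 ± 18.9 FPKM. In these bulk libraries, fewer cells of a type and less RNA per cell cannot be told apart.

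Set against the CD31+CD34+ mean, endothelial genes in CD43+ cells ran from 5.79% for SOX17 to 336% for CLDN5, with a median of 41.1% over 28 genes. CDH5 stood at 35% of that level and PECAM1 at 174%. SOX17 and SOX7, factors of hemogenic endothelium, were low in absolute terms too, at 1.49, 1.58 and 1.13 FPKM and at 2.51, 2.99 and 2.96 FPKM. For 22 of the 28 tested endothelial genes the highest mean of the 4 populations lay in CD31+CD34+ cells, and for the other 6 genes it lay in CD43+ cells.

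The study asked how mesenchymal genes change along the series, and H1 and CD43+ cells are its ends. The list used here was written for this comparison and is not the study's mesenchyme development gene set. Of 59 listed mesenchymal genes, 47 were tested. In CD43+ cells 32 were raised (68.1%) and 4 were lowered (8.51%), against 15.5% and 24.2% of all genes. The median over all 59 was 1.28, and 17 of the 47 passed through CD43+ cells alone. FN1 (fibronectin) was at 12.4, 12.9 and 12.1 FPKM in H1 and at 97.1, 112 and 106 FPKM in CD43+ cells, with a mean of 615 FPKM in CD31+CD34+ cells between them. VIM (vimentin) was at 37.2, 46.6 and 43.2 FPKM in H1 and at 244, 333 and 314 FPKM in CD43+ cells, with 946 FPKM between. NRP1 was at 0.534 ± 0.119 FPKM in H1, 52.8 FPKM in CD31+CD34+ and 18.1 ± 3.03 FPKM in CD43+ cells. These 3 genes did not return to their H1 level by day 8 in any library.

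Other mesenchymal genes ended close to H1, under it, or above it but at only a few FPKM. SNAI1 was at 0.596, 1.09 and 0.940 FPKM in H1 and at 0.979, 1.55 and 1.16 FPKM in CD43+ cells, with overlapping libraries (0.25 ± 0.14, limma adjusted p 0.124), after 10.3 FPKM in APLNR+ cells. BMP2, which did not enter the test, was at 0.450 FPKM on average in H1, 71.3 FPKM in APLNR+ and 0.651 FPKM in CD43+ cells. GATA4, HAND1 and TBX20 were raised, but only to 2.44 ± 0.380, 1.59 ± 0.328 and 2.01 ± 0.434 FPKM, from under 0.1 FPKM. SNAI2, TWIST1 and FOXD1 were not tested, with CD43+ means of 1.15, 1.08 and 0.162 FPKM. TPM1, TAGLN, CNN1 and SMAD7 were lowered, among them the smooth muscle genes TAGLN, from 76.4 ± 15.7 to 15.7 ± 1.57 FPKM after 466 FPKM in APLNR+ cells, and TPM1, from 149.6 ± 12.8 to 24.4 ± 0.696 FPKM.

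A further part of the list was as high or higher in CD43+ than in CD31+CD34+ cells. S100A4, a calcium-binding protein also made by leukocytes, was at 38.6, 33.3 and 32.9 FPKM in H1 and at 922, 925 and 874 FPKM in CD43+ cells, 263% of its CD31+CD34+ mean. ZEB2, a zinc finger repressor, was at 48.8, 55.8 and 55.5 FPKM against 0.171 FPKM or less in H1, COL3A1 averaged 44.2 ± 2.85 FPKM and ACTA2 34.8 ± 6.93 FPKM. Over the 51 mesenchymal genes that averaged at least 1 FPKM in CD31+CD34+ cells, the CD43+ mean was 34.3% of that level at the median and over 100% for 12. Of the 47 tested genes, 15 were highest in APLNR+, 19 in CD31+CD34+, 12 in CD43+ and 1 in H1 cells.

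Families in which the ends of the series used different members were described next. Among integrins, ITGA6, the laminin receptor chain of hESCs, was at 40.3, 44.0 and 43.9 FPKM in H1 and at 3.90, 3.35 and 3.83 FPKM in CD43+ cells, while ITGA2B rose as given above. ITGB5 fell from 82.4 ± 13.4 to 9.36 ± 2.32 FPKM and ITGB1, the chain shared by most matrix receptors, from 84.0 ± 4.90 to 34.2 ± 3.80 FPKM. ITGA9 and ITGA5 rose to 25.1 ± 2.06 and 45.5 ± 6.09 FPKM, and the leukocyte chains ITGB2 and ITGA4 reached only 4.88 ± 1.30 and 4.87 ± 0.191 FPKM. In all, 6 of 13 tested alpha chains were raised (46.2%) and 2 lowered (15.4%). Of 4 tested beta chains, 2 were raised and 2 lowered. The shares over all genes were 15.5% raised and 24.2% lowered. A pair of alpha chains and both raised beta chains passed through CD43+ cells alone.

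Claudins gave 7 lowered (63.6%) and 1 raised (9.09%) of 11 tested, against 24.2% and 15.5% of all genes. The list held 21 claudins (median over all -0.04). Of the 11, 4 passed through H1 alone and 1 through CD43+ cells alone. CLDN6 was at 109.8, 128 and 122 FPKM in H1 and at 4.58, 6.13 and 5.61 FPKM in CD43+ cells, and CLDN7 fell from 45.6 ± 2.36 to 10.6 ± 1.31 FPKM. CLDN5, the endothelial claudin, rose from 0.438 ± 0.168 to 5.53 ± 0.962 FPKM. Beta tubulins gave 3 lowered (37.5%) and 1 raised (12.5%) of 8 tested, against 24.2% and 15.5% of all genes. TUBB2B, TUBB3 and TUBB2A fell from 170.4 ± 28.5, 118 ± 16.9 and 50.3 ± 4.26 FPKM to 11.8 ± 0.713, 14.0 ± 1.79 and 3.75 ± 1.16 FPKM, and the platelet tubulin TUBB1 reached 1.57, 2.07 and 1.76 FPKM from 0.00503 FPKM or less. Of 21 HOXA and HOXB genes, 7 were tested, all of them HOXB genes that passed through CD43+ cells alone and so had to be higher there, and the median over all 21 was 0.14. The 7 were raised, HOXB9 the highest at 6.86, 9.92 and 10 FPKM, while HOXA9 was at 0.190 FPKM or less.

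**Figure D5:**
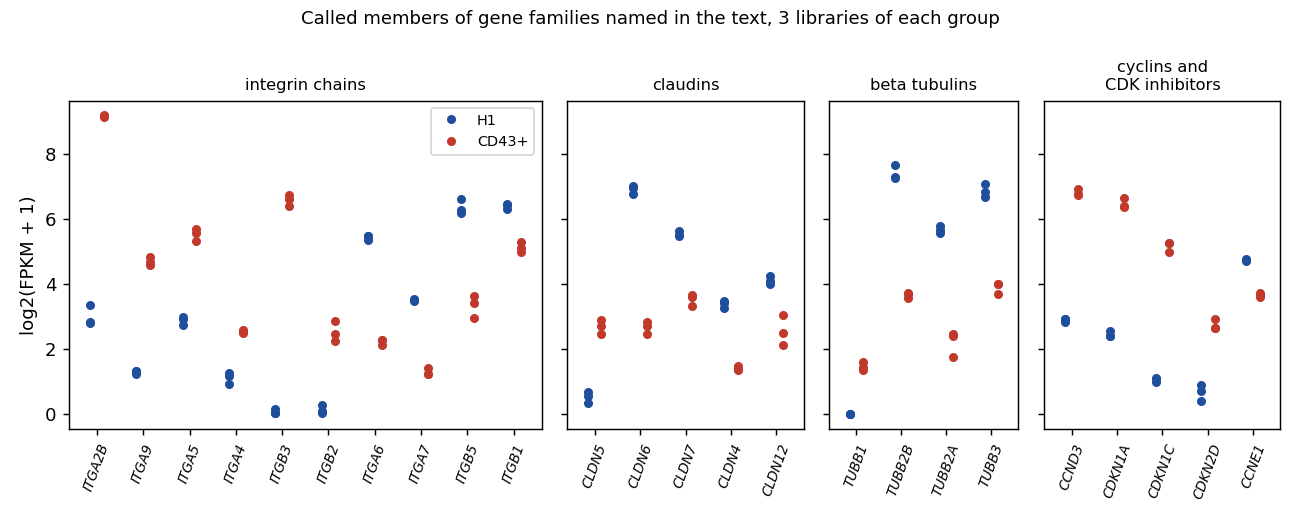
Points are the 3 libraries of H1 (blue) and CD43+ cells (red) on a log2(FPKM + 1) axis for named members of 4 gene families. Only called members are shown, nearly all picked by a rule that required groups without overlap, so the gap between the groups is not a result. Family members that were not called are left out. Each family holds members that were higher in CD43+ cells and members that were higher in H1.

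No listed gene of DNA replication or mitosis was raised. Of 30 DNA replication genes, all tested, 9 were lowered (30%), near the 24.2% of all genes, with a median of -0.74. Of 25 mitosis genes 13 were lowered (52%), with a median of -1.09. CENPF, a kinetochore protein, was at 29.4, 39.2 and 38.1 FPKM in H1 and at 2.72, 3.61 and 3.90 FPKM in CD43+ cells, and TOP2A fell from 61.3 ± 7.46 to 7.56 ± 1.33 FPKM. RFC4, a clamp loader subunit, fell from 54.2 ± 10.3 to 9.33 ± 1.48 FPKM, whereas its partner PCNA, at 176, 176 and 170.0 against 96.9, 101 and 114 FPKM, stayed under the 2-fold limit. Of 12 listed D and E cyclins and CDK inhibitors, 10 were tested. Of these, 5 were raised (50%, against 15.5% of all genes), 2 of them through CD43+ cells alone, and 1 was lowered. The inhibitor genes CDKN1A (p21) and CDKN1C (p57) were raised, from 4.51 ± 0.340 to 88.8 ± 9.15 and from 1.08 ± 0.0929 to 35.3 ± 3.76 FPKM. CCND3, the D-type cyclin of blood cells, was at 6.09, 6.63 and 6.55 FPKM in H1 and at 107, 122 and 109 FPKM in CD43+ cells, while CCND2 differed by -0.22 ± 0.12 (limma adjusted p 0.128) and CCNE1 fell from 25.9 ± 0.617 to 11.7 ± 0.521 FPKM.

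In metabolism, the lactate transporter genes moved in opposite directions. Of 22 glycolysis genes, 4 were raised (18.2%, and 2 genes without CD43+ replicate 2) and 3 lowered (13.6%), with a median of 0.34, so the raised share was near that of all genes. SLC16A3, a lactate exporter, was at 1.51, 1.36 and 0.985 FPKM in H1 and at 88.7, 91.6 and 67.8 FPKM in CD43+ cells. SLC16A1, the related transporter of H1, fell from 115 ± 1.88 to 29.8 ± 4.28 FPKM, and LDHB from 1064 ± 23.8 to 328 ± 35.6 FPKM. The glucose transporter gene SLC2A1 was lowered from 101 ± 10.4 to 45.2 ± 4.58 FPKM. Of 22 cholesterol synthesis genes 4 were raised (18.2%) and 1 lowered (4.55%, and 2 genes without H1 replicate 2 or CD43+ replicate 3). The raised share was near the 15.5% of all genes and the lowered share was under their 24.2%. Of the 22, 14 were highest in CD31+CD34+ cells.

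Of 24 listed DNA methylation and polycomb genes, 21 were tested, 5 were raised (23.8%) and 6 lowered (28.6%), shares not far from the 15.5% and 24.2% of all genes. JARID2, a polycomb recruiter, fell from 56.6 ± 3.5 to 10.4 ± 0.898 FPKM and RNF2 from 28.4 ± 1.53 to 6.47 ± 0.641 FPKM, while CBX8 and BMI1 were raised, BMI1 to 1.96, 1.78 and 4.02 FPKM from 0.527, 0.730 and 0.701 FPKM. Without CD43+ replicate 3, its highest library, the BMI1 difference was 0.80, under the 2-fold limit. The DNA demethylases TET1 and TET2 went in opposite directions, TET1 from 9.15 ± 2.64 to 1.26 ± 0.281 FPKM and TET2 from 0.526 ± 0.152 to 3.96 ± 1.43 FPKM. Of 23 listed genes of MHC presentation, 17 were tested, 4 were raised (23.5%) and 4 lowered (23.5%), against 15.5% and 24.2% of all genes. Without H1 replicate 3 or CD43+ replicate 3, 2 were lowered. B2M, the light chain of class I molecules, was at 55.8, 75.4 and 74.6 FPKM in H1 and at 309, 399 and 437 FPKM in CD43+ cells, HLA-E rose from 3.90 ± 0.490 to 29.2 ± 2.04 FPKM, and the peptide transporter gene TAP1 fell from 1.95 ± 0.122 to 0.466 ± 0.0945 FPKM, a call that was lost without H1 replicate 2 (-0.98), H1 replicate 3 or CD43+ replicate 3 (-0.96).

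Markers of other tissues stood at mixed levels. The counts below stand beside 15.5% raised and 24.2% lowered over all genes. Of 7 neural genes tested out of 17, 4 passed through H1 alone and 6 were lowered (median over all 17 -0.09), with ZIC2 at 8.49, 12.6 and 12.1 FPKM in H1 and at 0.00785 FPKM or less in CD43+ cells. Of 8 endoderm genes tested out of 16, 6 passed through CD43+ cells alone and 1 through H1 alone, 6 were raised and 2 lowered, and the median over all 16 was 0.27. TTR was at 4.21, 4.92 and 3.97 FPKM and APOA2 at 5.82, 11.1 and 6.07 FPKM in CD43+ cells, and AFP at 8.56 ± 0.869 in H1 against 0.711 ± 0.340 FPKM. The summed level of the 16 endoderm genes was from 16.4 to 17.2 FPKM in H1 and from 26.2 to 32.9 FPKM in CD43+ libraries. Of 19 cardiac and smooth muscle genes, 11 were tested, 4 through CD43+ cells alone and 3 through H1 alone, 4 were raised and 4 lowered (median over all 19 -0.01), with MEF2C, which blood and endothelial cells also use, at 26.0, 37.5 and 40.9 FPKM in CD43+ cells, NKX2-5 at 1.68, 2.39 and 1.79 FPKM and TNNT2 at 0.0726 FPKM or less. Of 18 primitive streak and mesoderm genes, 5 were tested, 3 of them through CD43+ cells alone, and the median over all 18 was 0.11. APLNR, PRICKLE1 and CDX1 were raised, to 23.7 ± 2.27, 25.1 ± 6.24 and 1.48 ± 0.310 FPKM, and CER1 was lowered, a call (-1.02) that was lost without H1 replicate 3 (-0.94), CD43+ replicate 2 (-0.86) or CD43+ replicate 3 (-0.86). APLNR had been at 383 and 403 FPKM on average in APLNR+ and CD31+CD34+ cells. MIXL1, a streak factor that did not enter the test, averaged 71.3 FPKM in APLNR+ cells and 0.205 and 0.111 FPKM in H1 and CD43+ cells. The part of other cell types in these values was not tested.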

How the data were processed

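RNA-seq of 3 H1 and 3 CD43+ libraries was analysed, grouped by sample title. Per the labels, RNA was taken up in Trizol and an Illumina TruSeq kit served for the libraries. The file deposited by the authors lists FPKM per gene, 1 column for each library. The submitters' processing notes name BWA, Bowtie, RSEM and hg19 without a role or version, and neither the annotation nor a scaling of libraries to each other is named (not given in the sources used here). FPKM values are not counts, so no count model was run and the absolute depth is unknown. Relative depth came from the spacing of values between 0.0001 and 0.2 FPKM.

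The table holds 58365 entries and 56593 symbols, and for each of 345 repeated symbols only its line of highest mean entered. Gene types came from GENCODE release 29 by symbol. A value of exactly 0 can be a failed estimate: EEF1A1 was listed at 0 in replicates 2 and 3 of both groups and at 4616 and 4494 FPKM in replicate 1. SNORD3A and 5 other genes were at 0 in a whole group and at 100 FPKM or more in the other. For genes with a value of 0 the libraries are given one by one.

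limma 3.58.1 in R 4.3.3 (lmFit, eBayes with trend) was fitted to log2(FPKM + 1) of the 6 libraries, with Benjamini-Hochberg adjustment over all 13767 genes and no covariate. The fit was tested on simulated data. Between libraries, correlations of log2 values were from 0.977 to 0.993 within groups and from 0.707 to 0.737 across them. All p values of single genes given above, other than the exact ones, come from the limma fit without covariate. This main fit was unpaired. Replicate numbers were taken to pair the samples only in an alternative fit with a replicate block. Deviations from the group means correlated at 0.386, 0.176 and 0.175 for numbers 1, 2 and 3. Numbers 2 and 3 were hardly told apart, as H1 replicate 3 with CD43+ replicate 2 gave 0.175 and H1 replicate 2 with CD43+ replicate 3 gave 0.111. Python 3.11.15 with pandas 2.3.3, numpy 2.4.6 and matplotlib 3.10.9 made tables and figures.

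The members of the lists, the lists and the comparison itself were chosen with earlier results of these data known. Genes named by rule were SPN, POU5F1 and the study's own genes. Added to these were the 10 largest rises and falls among called protein-coding genes without overlap, with a higher group mean of at least 10 FPKM. Up to 4 rises and 4 falls of each list, and members that went against their list, were named from called genes without overlap. Other members were named after their values were seen, and 1 of the 10 largest falls is not reported here. Lists are described by counts and medians and were not tested. Promoters are those of RefSeq (GRCh38.p14), matched by symbol, and none of the expression values carries coordinates.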

Additional observations from a re-analysis of the deposited data

How the results depend on the processing

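Counts of called genes kept within 1.5 times the reported 2136 raised and 3325 lowered under a pseudocount of 0.1 (2596 and 3998), no filter, upper-quartile, quantile and protein-coding scaling, a model of all 12 libraries, eBayes without trend, replicates 2 and 3 alone (2283 and 3271), and the removal of repeated symbols or of genes at 0 in a whole group. Removal of genes at 0 in some libraries of a group, a setting chosen after the data were seen, gave 2136 and 3324. A mean of at least 5 FPKM left 8523 genes with 1339 raised and 2023 lowered, no minimum change gave 4602 and 5875, and a minimum of 4-fold gave 709 and 951. Leaving out each library in turn gave from 1992 to 2250 raised and from 3209 to 3452 lowered, over the genes that passed the filter on all 6 libraries. The replicate block gave 2142 raised and 3329 lowered and changed no call of a named gene. The median difference over all genes was -0.05 with upper-quartile scaling, 0.01 with quantile normalization and -0.23 with protein-coding scaling. Of 167 named and tested genes none changed direction under these settings. Calls of named genes were also lost for KLF4 (0.93, replicates 2 and 3 alone), CER1 (-0.96 and -0.88, upper-quartile and quantile), KLF12 (-0.98 and -0.81, the same settings), CCNE1 (-0.99 and -0.96, upper-quartile and quantile), PIK3CD (-0.92, quantile) and TAP1 (-0.96 and -0.80, upper-quartile and quantile), and AHSP was gained as lowered under the pseudocount of 0.1 (-1.27) and protein-coding scaling (-1.07). Of 1216 list counts, 65 moved by over 1.5 times, 31 of them under the mean of at least 5 FPKM. The median of the MHC list changed sign, from 0.03 to -0.07, with protein-coding scaling. Changes of genes under about 1 FPKM, and of the shallower replicate 1 libraries, are the least precise, and a lower limit of detection cannot be set without read totals.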

Other observations

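Some long noncoding RNAs, named here after their values were seen, differed widely between the stem cells and the blood progenitors. As a class they were near all genes, since of 296 lincRNA genes tested 46 were raised (15.5%) and 90 were lowered (30.4%), against 15.5% and 24.2%. LINC00678 was at 199, 205 and 197 FPKM in H1 and at 0.435, 0.101 and 0.0410 FPKM in CD43+ cells, which placed it beside TDGF1 in size, and the stem cell transcript ESRG fell from 24.6 ± 0.551 to 0.0312 ± 0.00525 FPKM (SD, n = 3). Nuclear transcripts were among the rises. NEAT1, the scaffold of paraspeckles, was at 0.710, 0.728 and 0.727 FPKM in H1 and at 26.8, 24.9 and 26.6 FPKM in CD43+ cells, with a mean of 15.9 FPKM already in APLNR+ cells. MALAT1, a speckle transcript, was at 136, 142 and 154 FPKM in H1 and at 1089, 879 and 1024 FPKM in CD43+ cells. Values of nuclear and small RNAs depend on library preparation, and small RNA genes took a larger share of the H1 libraries as given above.

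Transcription factor families were described by member. Of 6 listed GATA genes, 5 were tested, all of them through CD43+ cells alone so that they had to be higher there, and 5 were raised, the non-blood members GATA4, GATA5 and GATA6 to 2.44, 2.44 and 3.05 FPKM only. Of 11 tested SOX genes, 3 passed through CD43+ cells alone and 3 through H1 alone, 4 were raised and 5 were lowered, with SOX13 falling from 16.4 ± 0.357 to 3.89 ± 0.153 FPKM and SOX4 from 31.2 ± 1.35 to 9.93 ± 1.04 FPKM. Of 11 tested KLF genes, KLF1, KLF6 and KLF4 were raised (27.3%), KLF12 was lowered (9.09%) and 7 were not called. The shares over all genes were 15.5% and 24.2%. KLF6 rose from 2.01 ± 0.436 to 15.7 ± 1.57 FPKM and KLF12 fell from 2.21 ± 0.366 to 0.581 ± 0.229 FPKM. The KLF4 difference was 0.98 without CD43+ replicate 1, under the 2-fold limit, and that of KLF12 (-1.03) was -0.99, -0.96 and -0.93 without H1 replicate 2, H1 replicate 3 and CD43+ replicate 3.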
